A study of Danio rerio with 7 samples.

Results

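Notochord genes were followed in dissected hindbrains of fgf20a mutant zebrafish embryos and in wild-type hindbrains. The set held 6 genes chosen by name, namely tbxta, noto, col2a1a, col8a1a, col9a1a and loxl5b, out of 32189 gene IDs in the counts table. A single ID was found for 5 of them. The names tbxta, noto, col8a1a and loxl5b each stood beside 1 ID. The symbol COL9A1 was taken as col9a1a by elimination, since the other copy of this gene, col9a1b, had an ID of its own. For col2a1a no single ID could be given, because 2 IDs carry the symbol COL2A1 and either could be the other copy, col2a1b. This gene was therefore dropped as a member, and both COL2A1 IDs are described under that symbol.

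RNA was sequenced in bulk from 7 libraries, each made from the hindbrain of 1 embryo at 24 hpf. The 3 libraries called Fgf20aHOM were from embryos that carried the dob mutation of fgf20a on both chromosomes. This gene encodes a secreted growth factor made by neurons in the centre of each hindbrain segment. These embryos were bred from homozygous parents, and for strain their labels repeat the genotype. The 4 Cnt libraries came from wild-type embryos of the LondonAB strain. Line and genotype thus differed together, and no littermates of the mutants were among the samples. All embryos were grown at 28.5°C. The labels name neighbouring tissue beside the hindbrain, whereas the study's methods describe a qPCR test of each dissection and sequencing of those without contamination.

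The notochord is a rod of mesoderm under the neural tube, and its front end lies beneath the hindbrain. It patterns the floor plate above it through Sonic hedgehog. In zebrafish its core of vacuolated cells is enclosed by sheath cells, which build a stiff collagen coat. The T-box factor Tbxta and the homeodomain factor Noto control how notochord cells form and keep their fate. Type II collagen makes the fibrils of the sheath, type IX collagen sits on those fibrils, type VIII collagen forms networks in sheets of matrix, and lysyl oxidases such as Loxl5b crosslink collagen. The cartilage-type collagens are not confined to the notochord, and are also known from the floor plate, the ear and head mesenchyme. Tbxta is known from the tailbud too, and noto from the pineal organ.

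The libraries held 52900433 to 55915518 counts in Fgf20aHOM and 59800936 to 69801072 in Cnt, so every mutant library was the smaller (exact permutation test of both sides, p = 0.0571, the smallest that 35 splits can give). No pair of libraries was near a repeat of the same library, with a chi-square per gene of at least 91.1. Counts were scaled for depth and composition to normalised counts, and a gene was called when its adjusted p in the edgeR quasi-likelihood test was at most 0.01, its fold change at least 2 and its normalised count above 30 in every library of 1 group. By this rule 86 of 19589 tested genes were called (0.439%), 45 higher and 41 lower in Fgf20aHOM. In bulk tissue, fewer cells of a type and less RNA per cell cannot be told apart. Hindbrain identity genes were present in all libraries, with a summed level of 760 to 1033 CPM (counts relative to the scaled library total) in Fgf20aHOM and 636 to 709 CPM in Cnt over 7 of 8 listed genes.

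None of the notochord genes was called in the edgeR quasi-likelihood test. Of the 5 genes with a single ID, 4 passed the filter on low counts, and so did both COL2A1 IDs. Among these 6 tested IDs, 0 were called by edgeR and 3 had an unadjusted p under 0.05 (tbxta, loxl5b and COL2A1 ENSDARG00000069093), where 15.6% of all tested genes did. Limma-voom also called 0, with 0.505% of all genes it tested called. DESeq2, which the study itself used with the same limits, called 1, which was tbxta, with 3.1% of all genes it tested called. The differences ran in both directions. For tbxta and loxl5b every Fgf20aHOM library lay below every Cnt library, which held for 8.03% of all tested genes. For COL2A1 ENSDARG00000069093 every Fgf20aHOM library lay above every Cnt library, which held for 9.46%. Over all tested genes the log2 fold change had a median of -0.05.

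**Figure D1:**
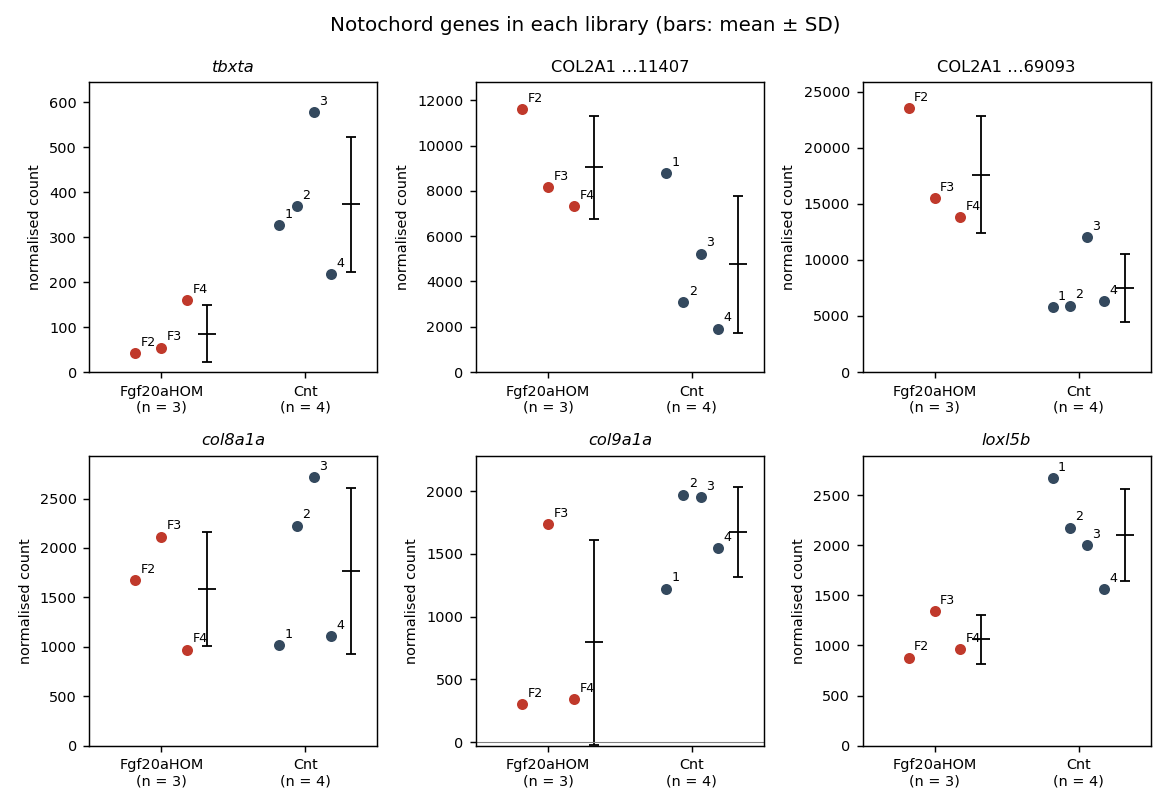
Normalised count (linear vertical axes) of 6 IDs in each library, with the 3 Fgf20aHOM libraries in red at the left and the 4 Cnt libraries in dark blue at the right of each panel; bars give the mean ± SD. The groups are apart for tbxta, loxl5b and COL2A1 ENSDARG00000069093, and Fgf20aHOM F3 with 1740.1 sits among the Cnt libraries for col9a1a.

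The regulators were at low counts. For tbxta (ENSDARG00000101576) the normalised counts were 42.9, 54.4 and 159 in the Fgf20aHOM libraries F2, F3 and F4, against 326, 369, 577 and 218 in Cnt 1 to 4. The highest mutant library, F4, thus stayed under the lowest wild-type library, Cnt 4. The means were 85.5 ± 64.1 in Fgf20aHOM and 373 ± 151 in Cnt (SD, n = 3 and 4). The fitted log2 fold change was -2.12 ± 0.60 (SE), 0.23 times the Cnt level, with an edgeR adjusted p of 0.130. DESeq2 gave -2.13 with an adjusted p of 0.00552, inside the limit. Of all tested genes, 3.22% had a lower log2 fold change. Without F4 the log2 fold change was -2.93 (edgeR adjusted p = 0.0921), and without F2 it was -1.80 (edgeR adjusted p = 0.381).

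For noto (ENSDARG00000021201) the raw counts were 0, 2 and 0 in the Fgf20aHOM libraries F2, F3 and F4 and 0, 0, 4 and 0 in Cnt 1 to 4. A library without a count could have held up to 3 at these depths, in counting error alone, so no difference was detectable and no fold change is given. The other Brachyury copy, tbxtb (the TBXT symbol, ENSDARG00000039806), had normalised counts of 6.98, 6.81 and 0 in Fgf20aHOM, against 24.1, 0, 4.64 and 0 in Cnt. It did not pass the filter either. Tailbud genes, which share tbxta expression, were at low counts. The list of 4 genes summed to 0.266 to 0.418 CPM in Fgf20aHOM and to 0 to 1.30 CPM in Cnt, and cdx4 had 0 counts in all libraries. Only tbx16 passed the filter on low counts. In Cnt 4, tbx16 and msgn1 had normalised counts of 36.0 and 41.8, beside 218 for tbxta. In F2 they had 0.997 each, beside 42.9 for tbxta. The other libraries did not keep this order. In Cnt 1 both genes had 0, beside 326 for tbxta, and Cnt 4 was the lowest Cnt library for tbxta. In F4 tbx16 and msgn1 had 11.9 and 7.58, beside 159 for tbxta. The part of tailbud RNA in the tbxta counts was not tested. The pineal list came down to 1 gene that could be matched, aanat2, an enzyme of melatonin synthesis, with 0.913 to 3.06 CPM in Fgf20aHOM and 0.422 to 1.32 CPM in Cnt. The label of the set as notochord genes therefore rests on tbxta and on matrix genes. Of these matrix genes, the cartilage-type collagens are known from other tissues too. The other defining factor, noto, was near absent from these libraries.

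The 2 COL2A1 IDs were both higher on average in Fgf20aHOM. COL2A1 ENSDARG00000069093 had normalised counts of 23533, 15489 and 13796 in the Fgf20aHOM libraries F2, F3 and F4, against 5760.0, 5911, 12059.8 and 6305 in Cnt 1 to 4. Cnt 3 stood well above the other wild-type libraries, yet below the lowest mutant library. The means were 17606 ± 5202 in Fgf20aHOM and 7509 ± 3043 in Cnt (SD, n = 3 and 4). The fit put the log2 fold change at 1.23 ± 0.31 (SE) and its edgeR adjusted p at 0.0980. DESeq2 gave an adjusted p of 0.0120, just outside the limit of 0.01. Over all alternatives the log2 fold change stayed between 0.96 and 1.55.

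COL2A1 ENSDARG00000011407 had normalised counts of 11605, 8153 and 7330 in the Fgf20aHOM libraries F2, F3 and F4, against 8774, 3086, 5225 and 1916 in Cnt 1 to 4. The groups overlapped through Cnt 1, which lay above F3 and F4. The means were 9029 ± 2268 in Fgf20aHOM and 4750.3 ± 3012 in Cnt (SD, n = 3 and 4). The fit put the log2 fold change at 0.93 ± 0.44 (SE, edgeR adjusted p = 0.350), and at 1.40 without Cnt 1 (edgeR adjusted p = 0.158). Cnt 1 also differed from the rest in the balance of the copies. The ratio of ENSDARG00000011407 to ENSDARG00000069093 was 0.493, 0.526 and 0.531 in the Fgf20aHOM libraries F2, F3 and F4, against 1.52, 0.522, 0.433 and 0.304 in Cnt 1 to 4. Reads shared by similar copies are divided between them in counting, so the sum of both IDs was also taken. It was 35137, 23641 and 21126 in the Fgf20aHOM libraries F2, F3 and F4, against 14534, 8996, 17285 and 8221 in Cnt 1 to 4. The summed means were 26635 ± 7470 in Fgf20aHOM and 12259 ± 4374 in Cnt (SD, n = 3 and 4), 2.17 times as high in Fgf20aHOM, and the groups did not overlap.

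For col8a1a (ENSDARG00000077403), the type VIII chain that is mutated in zebrafish gulliver embryos with a bent notochord, the normalised counts were 1674, 2116 and 971 in the Fgf20aHOM libraries F2, F3 and F4, against 1017, 2226, 2715 and 1106 in Cnt 1 to 4. Both groups spanned a similar range, and libraries of the same group differed by 2.18-fold in Fgf20aHOM and 2.67-fold in Cnt between the highest and the lowest. The log2 fold change was -0.15 ± 0.41 (SE, edgeR adjusted p = 0.890), and its sign was not stable. It was 0.04 with limma-voom, 0.13 without Cnt 3 and 0.10 without F4.

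For col9a1a (ENSDARG00000073699), an alpha chain of type IX collagen, the normalised counts were 301, 1740.1 and 343 in the Fgf20aHOM libraries F2, F3 and F4, against 1223, 1972, 1954 and 1547 in Cnt 1 to 4. F2 and F4 were far below all wild-type libraries, whereas F3 was within their range. The 5.78-fold gap within Fgf20aHOM was at least as wide as that of 92.2% of the genes with counts in all 3 libraries, for which the median was 1.70-fold. Within Cnt the highest library was 1.61 times the lowest, against a median of 2.15-fold over all genes. The log2 fold change was -1.07 ± 0.58 (SE, edgeR adjusted p = 0.406). It rested on which mutant libraries were used, with -2.34 without F3 (edgeR adjusted p = 0.0357), -0.68 without F2 and -0.71 without F4 (edgeR adjusted p = 0.788 and 0.641).

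The gene loxl5b (ENSDARG00000076904) encodes the crosslinking enzyme. Its normalised counts were 879, 1341 and 961 in the Fgf20aHOM libraries F2, F3 and F4, against 2666, 2176, 2005 and 1561 in Cnt 1 to 4. All mutant libraries were below all wild-type libraries, and the highest was 1.53 times the lowest in Fgf20aHOM and 1.71 times in Cnt. The means were 1060.2 ± 246 in Fgf20aHOM and 2102 ± 457 in Cnt (SD, n = 3 and 4). The log2 fold change of -0.99 ± 0.28 (SE) had an edgeR adjusted p of 0.127, and one of 0.0142 with DESeq2. It lay just under the fold limit of 2, and it stayed between -1.15 and -0.85 over all alternatives.

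Ratios of counts within a library do not depend on how libraries are scaled, and they set the members against each other. The tbxta count was 0.00182, 0.00352 and 0.0115 of that of COL2A1 ENSDARG00000069093 in the Fgf20aHOM libraries F2, F3 and F4, against 0.0566, 0.0624, 0.0479 and 0.0346 in Cnt 1 to 4. The wild-type libraries were close together in this ratio and all mutant libraries were lower, by 3.55 on the log2 scale on average (-7.90 ± 1.35 in Fgf20aHOM and -4.35 ± 0.37 in Cnt, SD, n = 3 and 4). COL2A1 ENSDARG00000069093 over loxl5b was 26.8, 11.6 and 14.4 in the Fgf20aHOM libraries F2, F3 and F4, against 2.16, 2.72, 6.02 and 4.04 in Cnt 1 to 4. COL2A1 ENSDARG00000069093 over col9a1a was 78.2, 8.90 and 40.2 in the Fgf20aHOM libraries F2, F3 and F4, against 4.71, 3.00, 6.17 and 4.07 in Cnt 1 to 4. In each of these 3 ratios the groups were apart, and the smallest gap among the 3 was that between F3 and Cnt 3 for col9a1a. Of 15 pairs in all, 7 were apart, and the narrowest was tbxta over col8a1a, with 0.164 in F4 against 0.166 in Cnt 2. The pairs are not separate results, since each of the 7 includes tbxta or a COL2A1 ID. For tbxta and loxl5b against COL2A1 ENSDARG00000069093, the gap followed from groups that were already apart in opposite directions. No share of such pairs over all genes was computed. Between loxl5b, col8a1a and col9a1a all pairs overlapped between the groups. The ratios were chosen after the values of the genes had been seen, and no test is given for them.

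**Figure D2:**
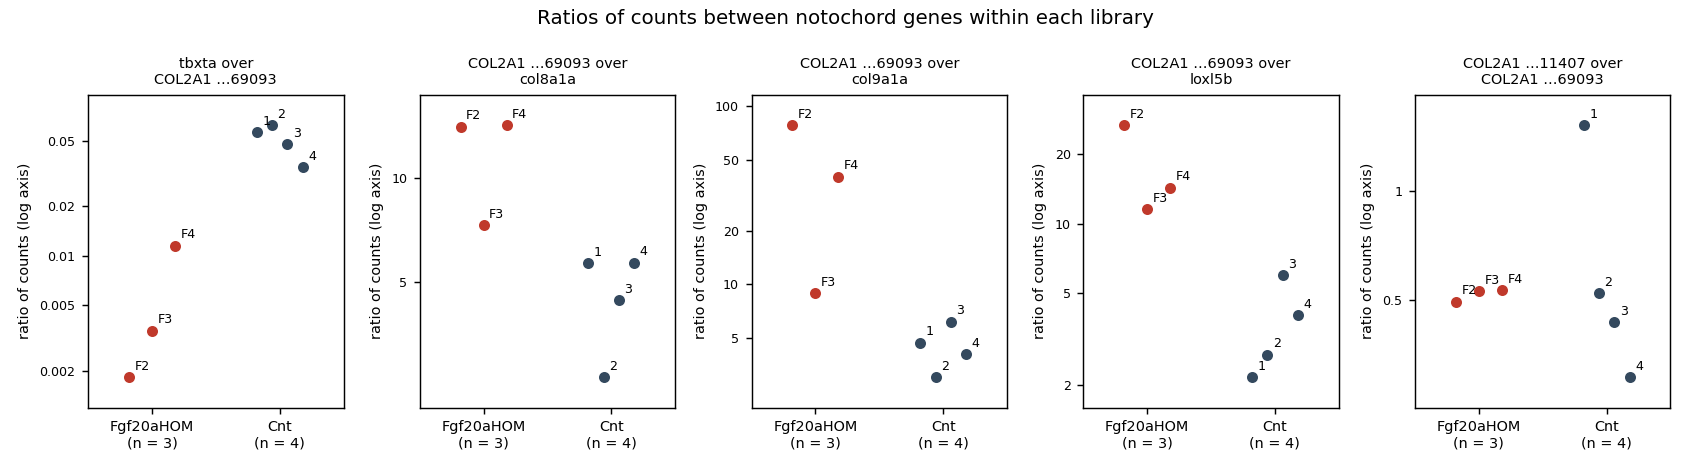
Ratio of counts between notochord genes within each library (logarithmic vertical axes), with the 3 Fgf20aHOM libraries in red at the left and the 4 Cnt libraries in dark blue at the right. In the first 4 panels the groups are apart, and in the last panel Cnt 1 with 1.52 stands above the other libraries.

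A list of 18 other genes known from the notochord or its sheath was matched for 15 entries, and 13 of these were tested. With edgeR 0 of 13 were called. An unadjusted p under 0.05 was found for 2 higher and 2 lower genes, and the groups did not overlap for 1 higher and 2 lower genes. Over all tested genes, 15.6% had such a p, and the groups did not overlap for 9.46% with Fgf20aHOM higher and 8.03% with it lower. The median log2 fold change of the 13 genes was -0.01. The lowest value was that of emilin3a, an extracellular glycoprotein of the notochord sheath. Its normalised counts were 20.9, 0 and 83.4 in the Fgf20aHOM libraries F2, F3 and F4, against 562, 278, 359 and 168 in Cnt 1 to 4. As for tbxta, all mutant libraries were under all wild-type libraries, with F4 the highest mutant and Cnt 4 the lowest Cnt library in both genes. The order differed otherwise. The lowest mutant library was F3 for emilin3a and F2 for tbxta, and the highest Cnt library was Cnt 1 for emilin3a and Cnt 3 for tbxta. The log2 fold change of emilin3a was -3.29 ± 1.17 (SE, edgeR adjusted p = 0.218), and -6.38 to -2.70 over the alternatives. The highest value was that of foxa3, a forkhead factor, with normalised counts of 775, 427 and 396 in Fgf20aHOM, against 80.5, 387, 181 and 121 in Cnt (log2 fold change 1.47 ± 0.55, SE, edgeR adjusted p = 0.234). It did not overlap either, although Cnt 2 with 387 came close to F4 with 396. The other forkhead genes of the list, foxa and foxa2, had log2 fold changes of -0.01 ± 0.61 and -0.15 ± 0.44 (SE).

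The hedgehog genes of the notochord and floor plate were not called by edgeR. The SHH symbol covers 2 IDs, which are shha and shhb in an order that could not be told. For ENSDARG00000038867 the normalised counts were 1297, 1329 and 991 in the Fgf20aHOM libraries F2, F3 and F4, against 1517, 3166, 1802 and 1709.9 in Cnt 1 to 4, with no overlap (log2 fold change -0.76 ± 0.31, SE, edgeR adjusted p = 0.265). For ENSDARG00000068567 they were 3508, 1864 and 567 in Fgf20aHOM and 719, 2979, 886 and 846 in Cnt, and the groups overlapped (log2 fold change 0.54 ± 0.66, SE, edgeR adjusted p = 0.735, and -0.16 to 1.28 over the alternatives). These genes were singled out after their values had been seen.

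Beside the members, 7 collagens that are made together with type II collagen in cartilage-like matrix were tested. All 7 were on the higher side in Fgf20aHOM, where 52.7% of all tested genes had a log2 fold change below 0. They were read in the same libraries, so their signs are not separate results. The member col9a1a, also a collagen of this kind, was not in this list and went the other way, with -1.07. With edgeR 0 of the 7 were called, and 0 had an unadjusted p under 0.05. Over all tested genes these shares were 0.439% and 15.6%. Their log2 fold changes ran from 0.08 for col9a3 to 1.13 ± 0.52 (SE) for col11a1b, with a median of 0.46. Under some alternatives 3 of them turned below 0, down to -0.13 for col9a3, -0.03 for col11a2 and -0.41 for col27a1b. The groups overlapped for all 7. Over all tested genes they did not overlap for 9.46% with Fgf20aHOM higher and 8.03% with it lower. The gene col9a3, a type IX chain that assembles with the product of col9a1a, had normalised counts of 5237, 6982 and 4022 in the Fgf20aHOM libraries F2, F3 and F4, against 5747, 2749, 6718 and 5268 in Cnt 1 to 4. F3 was again the highest mutant library, but only 1.74 times the lowest, where it was 5.78 times the lowest for col9a1a. The other type IX genes, col9a1b and col9a2, had log2 fold changes of 0.46 ± 0.32 and 0.61 ± 0.33 (SE). Relatives of col8a1a were scarce. Of 4 short-chain collagen IDs only col8a2 was tested (log2 fold change 0.56 ± 0.71, SE), a COL10A1 ID had 0 counts in all libraries, and col8a1b had normalised counts of 7.97, 0 and 0 in Fgf20aHOM and 0, 0, 0.928 and 38.9 in Cnt.

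Of 9 other lysyl oxidases listed, 6 were matched and 4 of these were tested. With edgeR 0 were called and 0 had an unadjusted p under 0.05. Over all tested genes these shares were 0.439% and 15.6%. The lowest was loxl2a with normalised counts of 1254, 1787 and 1905 in the Fgf20aHOM libraries F2, F3 and F4, against 2352, 1871, 2894 and 1723 in Cnt 1 to 4 (log2 fold change -0.42 ± 0.27, SE). The highest was loxl2b with 0.13 ± 0.24 (SE). The groups overlapped for all 4. Over all tested genes they did not overlap for only 8.03% with Fgf20aHOM lower and 9.46% with it higher. The overlap in these 4 genes therefore does not set loxl5b apart from its family. The other copy of loxl5b, loxl5a, had at most 3.25 normalised counts in any library.

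Genes that fold, modify and export collagen were tested for 13 of 13 entries, and 0 were called by edgeR. An unadjusted p under 0.05 was found for 1 higher and 2 lower genes, where 15.6% of all tested genes had one. The groups were apart for 1 lower gene, crtap, as for 8.03% of all tested genes. The highest was p4hb, protein disulphide isomerase and a subunit of prolyl hydroxylase, with normalised counts of 309, 1686 and 1821 in the Fgf20aHOM libraries F2, F3 and F4, against 399, 136, 415 and 405 in Cnt 1 to 4 (log2 fold change 1.91 ± 0.58, SE, edgeR adjusted p = 0.159). The F2 library lay within the Cnt range. The lowest was p4ha1b, the catalytic subunit of prolyl hydroxylase, which had 1521, 9472 and 1370.0 in Fgf20aHOM, against 3621, 16277, 13795 and 2935 in Cnt (log2 fold change -1.15 ± 0.91, SE, edgeR adjusted p = 0.593). Its libraries lay in nearly the order of col9a1a, with F2 and F4 lowest, then Cnt 1 and Cnt 4, then F3, and Cnt 2 and Cnt 3 highest. The lysyl hydroxylase gene plod1a, named after its values were seen, had 1981, 3371 and 1505 in the Fgf20aHOM libraries F2, F3 and F4, against 2725, 6464, 7694 and 2040 in Cnt 1 to 4, which falls into the same 4 steps. Other hydroxylase genes of the list did not share this order, since p4ha1a, p4ha2, plod2 and plod3 had F2 above F3.

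**Figure D3:**
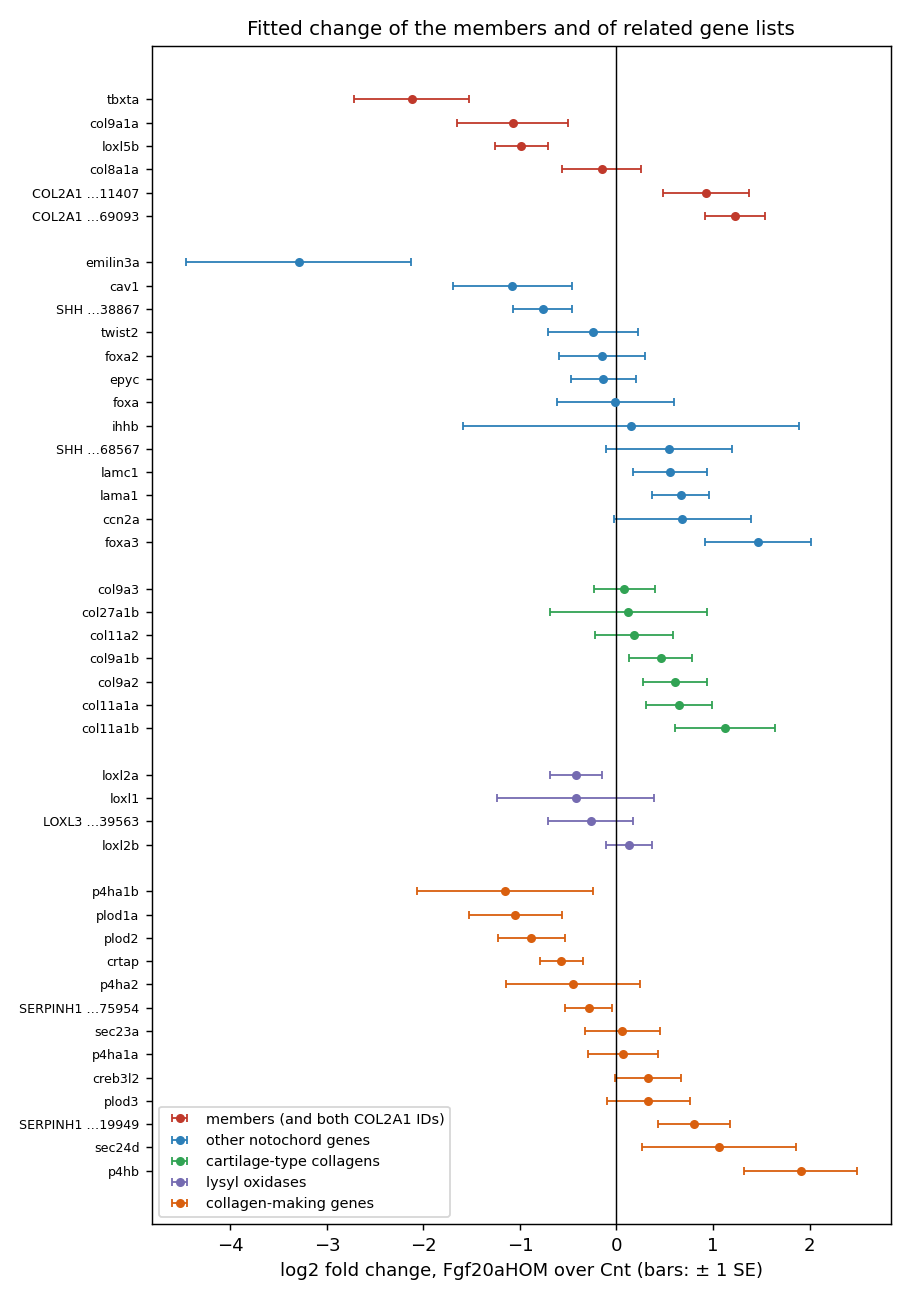
Fitted log2 fold change, Fgf20aHOM over Cnt, with bars of ± 1 SE, for the tested notochord genes and 4 related lists, each list in a colour and sorted by value. The members run from -2.12 for tbxta to -0.15 for col8a1a, and COL2A1 ENSDARG00000069093 lies at 1.23. All 7 genes of the cartilage-type collagen list, which leaves out col9a1a, lie above 0 in this fit, although 3 turned below 0 under some alternatives.

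Markers of tissues next to the hindbrain were set beside these values. The otic vesicle list, matched for 8 of 9 genes, summed to 83.3 to 90.3 CPM in Fgf20aHOM and to 132 to 594 CPM in Cnt. The groups did not overlap, as for tbxta and loxl5b, and Cnt 3, the highest library for this list, was also the highest for tbxta and col8a1a. The match did not hold further. Cnt 2, the lowest Cnt library for this list with 132 CPM, was above Cnt 1 and Cnt 4 for tbxta (369) and col8a1a (2226). The highest library was Cnt 1 for loxl5b and Cnt 2 for col9a1a. Within the list stm, a protein of the ear stones, had normalised counts of 606, 1571 and 1398 in Fgf20aHOM, against 5033, 1703, 20061 and 6562 in Cnt (log2 fold change -2.81 ± 0.81, SE, edgeR adjusted p = 0.158). DESeq2 called stm with an adjusted p of 0.00049, smaller than that of tbxta. By edgeR 3 of 7 tested genes had an unadjusted p under 0.05, all lower. The list was not uniform, with log2 fold changes below 0 for 5 of the 7 and above 0 for 2. The 2 were hmx2 (0.61 ± 0.66, SE) and hmx3a (1.33 ± 0.87, SE), and the groups overlapped for both. The floor plate list summed to 295 to 486 CPM in Fgf20aHOM and 245 to 591 CPM in Cnt over 7 genes. By edgeR 2 of the 7 had an unadjusted p under 0.05, both higher. One was NTN1 ENSDARG00000022531, a netrin copy, with normalised counts of 4011, 2269 and 869 in the Fgf20aHOM libraries F2, F3 and F4, against 903, 689, 614 and 669 in Cnt 1 to 4. The groups overlapped through F4 (log2 fold change 1.73 ± 0.43, SE, edgeR adjusted p = 0.0930), and DESeq2 called it with an adjusted p of 0.0061. The other netrin copy, NTN1 ENSDARG00000105112, averaged 7118 normalised counts in Fgf20aHOM and 7422 in Cnt. It stood at -0.06 ± 0.35 (SE) on the log2 scale, and the groups overlapped. Of the 7 floor plate genes, 5 were above 0 and 2 below, down to -0.37 for nkx2.9. The head mesenchyme list summed to 239 to 332 CPM in Fgf20aHOM and 153 to 551 CPM in Cnt over 7 genes, with 0 genes called by edgeR and 0 at an unadjusted p under 0.05. The sclerotome list (both PAX1 IDs, pax9 and nkx3-2) summed to 33.1 to 57.0 CPM in Fgf20aHOM and 17.9 to 97.9 CPM in Cnt over 4 genes. Whether this RNA came from cells around the notochord was not tested. Muscle genes, matched for 5 of 9 entries, summed to 252, 11.9 and 50.8 CPM in the Fgf20aHOM libraries F2, F3 and F4, against 2.38, 57.4, 203 and 2.54 CPM in Cnt 1 to 4. The libraries with most muscle RNA, F2 and Cnt 3, were also the highest of their group for COL2A1 ENSDARG00000069093. The other libraries did not keep this order. F4 had more muscle RNA than F3 but less of this ID (13796 against 15489), as had Cnt 2 beside Cnt 4 (5911 against 6305). The summed hindbrain genes were higher in all Fgf20aHOM libraries, as COL2A1 ENSDARG00000069093 was, and 2 of 7 tested hindbrain genes had an unadjusted p under 0.05. The neural list of 4 genes summed to 2646 to 2847 CPM in Fgf20aHOM and 1927 to 2775 CPM in Cnt. Its sums overlapped, yet all 4 genes had log2 fold changes above 0, with a median of 0.43, and for sox2, sox19a and elavl3 the groups did not overlap, with Fgf20aHOM higher. By edgeR 2 of the 4 had an unadjusted p under 0.05. Over all tested genes, 15.6% had such a p, and the groups did not overlap for 9.46% with Fgf20aHOM higher and 8.03% with Fgf20aHOM lower. The part of these tissues in the values of the notochord genes was not tested.

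**Figure D4:**
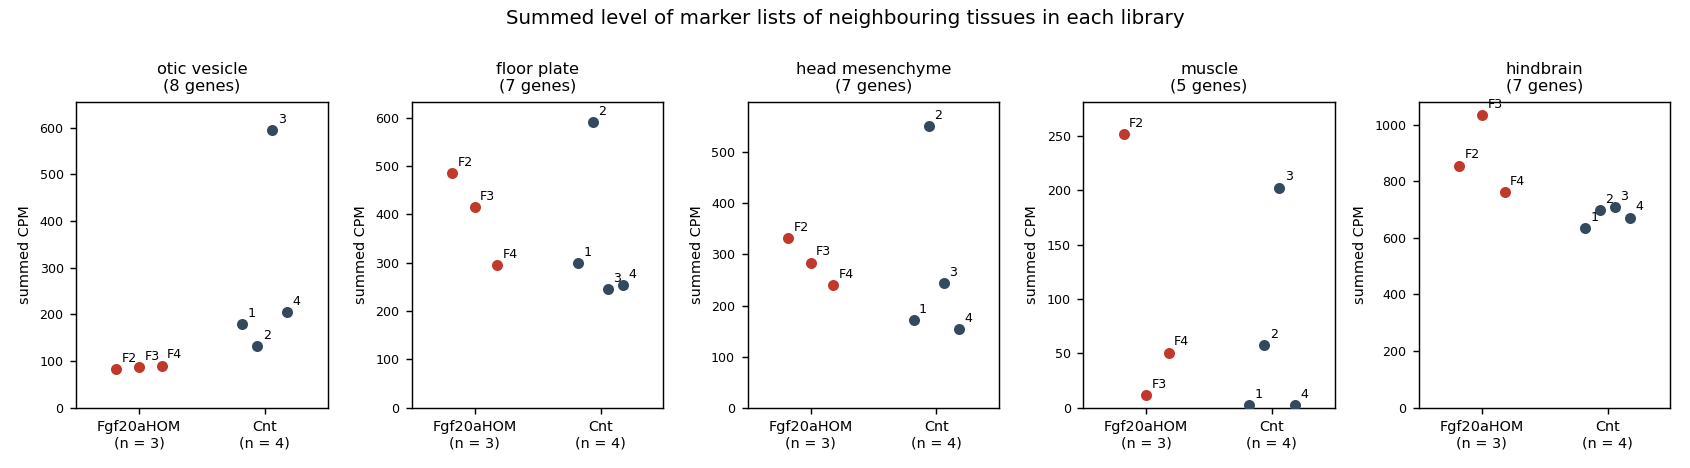
Summed CPM (linear vertical axes from 0) of marker lists in each library, with the 3 Fgf20aHOM libraries in red at the left and the 4 Cnt libraries in dark blue at the right. The otic vesicle list is lower in all Fgf20aHOM libraries (83.3 to 90.3 CPM) than in any Cnt library, and muscle differs widely within both groups.

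The mean profile of the 4 tested members with a single ID was lowest in Fgf20aHOM F2 and highest in Cnt 3. The mean centred log2 CPM was -1.13, -0.18 and -0.78 in the Fgf20aHOM libraries F2, F3 and F4, against 0.31, 0.74, 0.94 and 0.09 in Cnt 1 to 4. As a description over 7 libraries, loxl5b, col9a1a and tbxta followed this mean, of which each is a part, with Pearson's r of 0.896, 0.893 and 0.843, while col8a1a did so with 0.447. Among 14656 other genes with a symbol and at least 1 CPM on average, the most similar profiles were those of si:ch211-74m13.1 (r = 0.993), AUP1 (0.991), 1 of 2 IDs named si:dkey-14d8.23 (0.985), hist2h2l (0.983) and AK3 (0.977). Their log2 fold changes ran from -1.06 to -0.42, and none was called by edgeR. The mean profile was below 0 in every Fgf20aHOM library and above 0 in every Cnt library. Values below 0 thus follow from choosing genes by likeness to it. An r of at least 0.95 was reached by 30 genes, and no chance level for such an r was computed.

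The alternatives left most of these values in place. The direction of tbxta, col9a1a, loxl5b and both COL2A1 IDs was the same under every alternative that gave a value. The widest range was that of col9a1a, from -2.34 to -0.68 on the log2 scale, and both ends came from leaving out a mutant library.

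**Figure D5:**
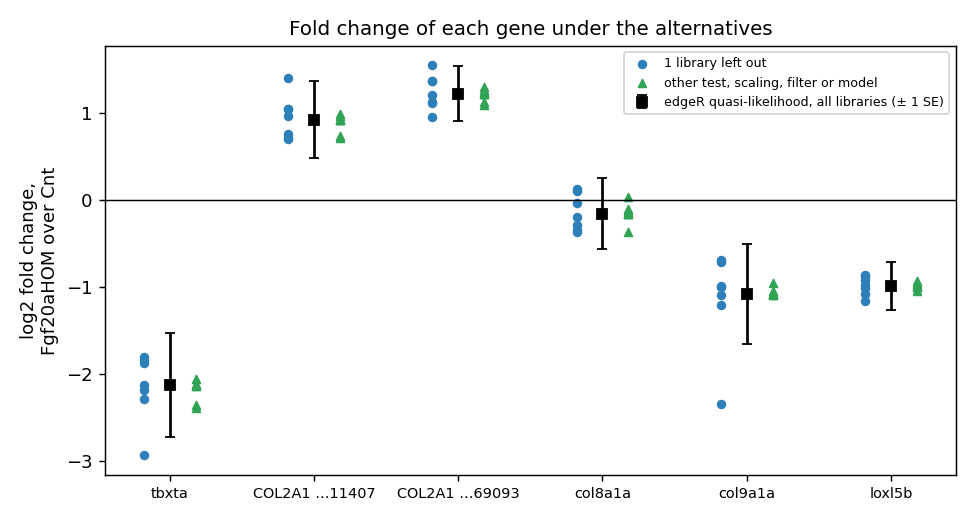
Log2 fold change, Fgf20aHOM over Cnt, of each tested ID with all libraries (black squares, ± 1 SE), with 1 library left out (blue circles) and with another test, scaling, filter or model (green triangles). Only the values of col8a1a lie on both sides of 0.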

How the data were processed

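Reads were paired-end, from amplified cDNA (NuGEN Ovation, Nextera XT). The authors aligned them to GRCz10 with Ensembl transcripts (STAR 2.5.1b within RSEM 1.2.31) and deposited gene-level estimated counts (RSEM expected counts) rounded to whole numbers and not scaled for depth; a plain count table had been assumed, and the count tests were kept. RSEM divides reads between similar copies. Strand use was not given in the sources used here. A names table gave a symbol to 26350 of 32189 IDs. Copies without a letter were resolved by elimination against RefSeq names (GRCz12tu), or kept under the bare symbol. Of 109 entries in 14 lists, 92 were matched. No gene coordinates were used.

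Mutant columns were numbered 2 to 4 and titles 1 to 3, so these libraries are called F2, F3 and F4. Tests used edgeR 4.0.16 (R 4.3.3) with filterByExpr, TMM, robust quasi-likelihood F tests, genotype as the only term and Benjamini-Hochberg adjustment over 19589 genes, after a check on simulated data. SE values were derived from the F statistic. Each library was a separate embryo. Alternatives were DESeq2 1.42.0, limma-voom (limma 3.58.1) with quality weights, the likelihood ratio test, other scaling and filters, 1 surrogate variable (sva 3.50.0) and each library left out. Named genes were the members, called genes of the lists and the highest and lowest gene of each matrix list. The 5 most similar profiles (log2 CPM, prior count 2) were also named, and the tissue lists were given as sums. Single genes described from the tissue lists, such as stm, and all other named genes were chosen after their values were seen. Members and lists were chosen with earlier results of these data known.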

Additional observations from a re-analysis of the deposited data

Results flagged for a closer look

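Single wild-type libraries that stood apart were sought in 21 measures (7 IDs and 14 lists), by the gap of the most distant of the 4 Cnt libraries over their range, set against Dixon's critical value. For normally distributed values chance gives about 1 in 20, or 1.05 here, and 5 were found. The values were not put on a log scale and all measures share the same libraries. The 5 therefore cannot be set strictly against 1.05. COL2A1 ENSDARG00000069093 had a normalised count of 12059.8 in Cnt 3, where the other Cnt libraries averaged 5992. For noto the only Cnt library with counts was Cnt 3, with a normalised count of 3.71 (4 raw counts), and 3 libraries at 0 make any such gap the widest possible. The otic vesicle list summed to 594 CPM in Cnt 3, where the others averaged 172 CPM. The floor plate list summed to 591 CPM in Cnt 2, where the others averaged 266 CPM. The lysyl oxidase list, without loxl5b, summed to 81.2 CPM in Cnt 4, where the others averaged 133 CPM. The sources of these values were not tested.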

How the results depend on the processing

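No paired analysis was possible, since mutant and wild-type libraries were from separate embryos of different lines with no pairing given. The numbers of the mutant columns (2 to 4) and of their titles (1 to 3) also differ, so the replicate block was not run. Over all genes, 86 calls became 635 with DESeq2, 379 with the likelihood ratio test and 42 with 1 surrogate variable, and 15 to 69 when 1 library was left out (36 without Cnt 1, 49 without Cnt 2, 28 without Cnt 3, 50 without Cnt 4, 15 without F3, 23 without F4). Scaling moved the share of higher calls little with DESeq2 size factors in edgeR (45 higher and 38 lower) and more with total counts only (38 and 27). It was 21 higher and 77 lower with at least 1 CPM in all libraries, 22 and 77 with limma-voom and 259 and 376 with DESeq2. Only tbxta crossed the call limit, with DESeq2 (log2 fold change -2.13), and it had no value with at least 1 CPM in all libraries, since it was below that in part of them. The sign of col8a1a turned with limma-voom (0.044), and its value ran from -0.36 to 0.13 with 1 library left out (0.10 without F4). The direction of the other tested notochord IDs was kept throughout. With 0 to 4 counts a library, noto was not tested in the main fit. It was fitted by DESeq2, without an adjusted p, and with no filter on low counts (edgeR adjusted p = 0.967), and was called in neither.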
